A study of Mus musculus with 8 samples.

Results

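Glycolysis and gluconeogenesis run in opposite directions between glucose and pyruvate in the liver, and 9 genes that control their irreversible steps are described here in livers of wild-type mice and of mice heterozygous for eIF2α. They are Gckr, Pfkfb1, Pfkfb3, Pklr, G6pc, Pck1, Fbp1, Pcx and Ppargc1a. They were chosen by symbol, with earlier results of these data known, as 9 of the 56077 genes and loci of the deposited count table. All 9 passed the filter on low counts, which left 14261 genes. The groups were 4 wild-type and 4 heterozygous C57BL/6 mice, 6 months old and lean, kept on 12 h light and 12 h dark with free access to food and killed at 6:30 am in the fed state. The heterozygous genotype is labelled eIF2α flox/+ in the titles and Eif2a flox/+ in the genotype field. No recombinase is named, and in the growth protocol all animals are described as wild-type. Whole liver was sequenced after removal of ribosomal RNA, so fewer cells of a type and less RNA per cell cannot be told apart.

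Gckr encodes a regulatory protein of hepatocytes that acts at the entry of glucose into the pathway. Phosphofructokinase and fructose bisphosphatase oppose each other at a central control step, and the bifunctional enzymes of the Pfkfb family make and break the sugar phosphate that activates the former and inhibits the latter. Liver pyruvate kinase (Pklr) ends glycolysis. Pyruvate carboxylase (Pcx), phosphoenolpyruvate carboxykinase (Pck1), fructose bisphosphatase (Fbp1) and the catalytic subunit of glucose phosphatase (G6pc) carry gluconeogenesis past the irreversible steps. PGC-1α, encoded by Ppargc1a, is a transcription coactivator that induces gluconeogenic genes in fasting. Insulin and glucose raise Pklr transcription, whereas glucagon, through cAMP, raises Pck1 and G6pc and insulin represses them.

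RefSeq promoters on GRCm38.p6, the assembly of mm10, were matched for all 9 genes, with 15 start sites. Those of Pklr, Pck1 and G6pc are shown because they belong to the genes at the opposed ends of the pathway and hold a letter pattern known for that hormone or sugar response. Each runs 5′ to 3′ on the plus strand and stops before the next annotated exon downstream, and the matched pattern is in capitals. The Pklr stretch lies in an intron of transcripts that begin at the upstream start.
Pklr, downstream (liver-type) start, chr3:89136373-89136571: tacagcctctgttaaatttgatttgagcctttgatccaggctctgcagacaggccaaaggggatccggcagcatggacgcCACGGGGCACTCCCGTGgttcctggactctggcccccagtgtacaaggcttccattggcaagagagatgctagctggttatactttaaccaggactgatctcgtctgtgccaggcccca
Pck1, chr2:173152823-173153047: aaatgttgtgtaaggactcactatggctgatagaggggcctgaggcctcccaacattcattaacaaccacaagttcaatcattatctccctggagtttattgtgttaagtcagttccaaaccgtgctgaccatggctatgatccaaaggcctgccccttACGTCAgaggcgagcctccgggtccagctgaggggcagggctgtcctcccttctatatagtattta
G6pc, chr11:101367466-101367560: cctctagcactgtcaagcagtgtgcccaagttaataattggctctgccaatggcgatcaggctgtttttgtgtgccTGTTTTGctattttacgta
In Pklr the capitals mark the carbohydrate response pattern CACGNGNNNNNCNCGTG, which reads the same on both strands, from 170 to 154 bases before the RefSeq start. This pattern was written from what is known of the Pklr element, so its presence there is no result, and 0.0396% of 32851 RefSeq promoters hold it in the 250 bases before the start. In Pck1 the capitals mark the cAMP response core ACGTCA (6.47% of promoters on either strand), 91 to 86 bases before the start. In G6pc they mark TGTTTTG, a core of forkhead insulin response sites (5.56% of promoters), 174 to 168 bases before the start. The 4 patterns searched, the fourth being the E box CACGTG (6.02% of promoters), did not overlap in these windows. ACGTCA was also present before starts of Pfkfb3 and Ppargc1a, TGTTTTG before that of Gckr, and CACGTG before starts of Pcx and Pfkfb3. The windows before the starts of Fbp1 and Pfkfb1 held none of the 4 patterns.

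Library totals were 25626387 to 27799116 counts in wild-type and 22178028 to 28564400 in heterozygous livers. The table's column names W32, W33, W76 and W90 stand for wild-type libraries and H11, H12, H15 and H75 for heterozygous ones. Eif2s1, which encodes eIF2α, was at 28.4 to 32.8 CPM (counts-per-million) in wild-type and 20.5 to 25.1 CPM in heterozygous libraries. H15 was set apart by the values of the 9 genes themselves. It was the heterozygous library nearest to the wild-type mean for 5 of the 9 genes, against 3 for H11, 1 for H75 and 0 for H12. For 1 gene, Fbp1, it was the farthest, and its Eif2s1 level was 20.8 CPM. Group differences are given with and without H15. For the genes where H15 was nearest, leaving it out widens the difference by construction, so those values are a description only. Hepatocyte markers had a summed level of 74899 to 103327 CPM in wild-type and 87701 to 97387 CPM in heterozygous libraries. Most of this sum was Alb, at 58999 to 82290 and 67127 to 76760 CPM. Of the 6 hepatocyte markers, 5 had a higher mean in heterozygous livers and 1 was higher at an unadjusted p under 0.05. Of 4 pancreas markers, Cpa1, Prss2 and Ins2 were at 0 in all libraries. The fourth, Cela1, was at 5.55 to 10.97 CPM in wild-type livers and at 16.99 (H11), 17.14 (H12), 8.07 (H15) and 15.96 CPM (H75) in heterozygous livers, with an unadjusted p under 0.05. The labels do not tell how the mice were related, so p-values measure only the spread between these samples, which may be technical in part.

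Between the genotypes, 6 of the 9 genes had lower and 3 had higher mean expression in heterozygous livers, and 0 passed an adjusted p of 0.05 with edgeR's quasi-likelihood test over all genes, as did 0.0% of all genes tested. An unadjusted p under 0.05 was reached by 7 of the 9, beside 9.34% of all genes. Because the 9 genes were chosen with earlier results of these data known, such shares describe them and do not test them as a set. Gckr, Pklr, Pcx and Ppargc1a were the 4 lower ones (4.44% of all genes), and Pfkfb3, G6pc and Pck1 the 3 higher ones (4.9% of all genes). Which genes these were depended on scaling. With library totals alone, edgeR gave an unadjusted p of 0.077 for Pck1 and 0.0158 for Fbp1 (lower), so Fbp1 took the place of Pck1. In Gckr, Pklr and Pfkfb3 the libraries of the groups did not overlap, as in 4.38% of all genes (2 lower beside 2.32%, 1 higher beside 2.06%). DESeq2, run without the filter on low counts, called these 3 genes and 0.587% of the 25709 genes with a p-value. Its default setting can leave genes of low mean count without an adjusted p. Such genes could not be called but remain in the 25709, so the share over expressed genes may be larger. On the 14261 filtered genes, limma-voom called 0 of the 9 and 0.0% of all genes. The median absolute log2 fold change was 0.57 over the 9 genes and 0.15 over all genes tested. Without H15, edgeR called Gckr, Pklr and Pfkfb3, beside 1.74% of all genes, and limma-voom called Gckr and Pklr, beside 1.36%. With edgeR, leaving out any other single library gave 0 calls among the 9 genes. H15 was singled out after its values were seen.

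**Figure D1:**
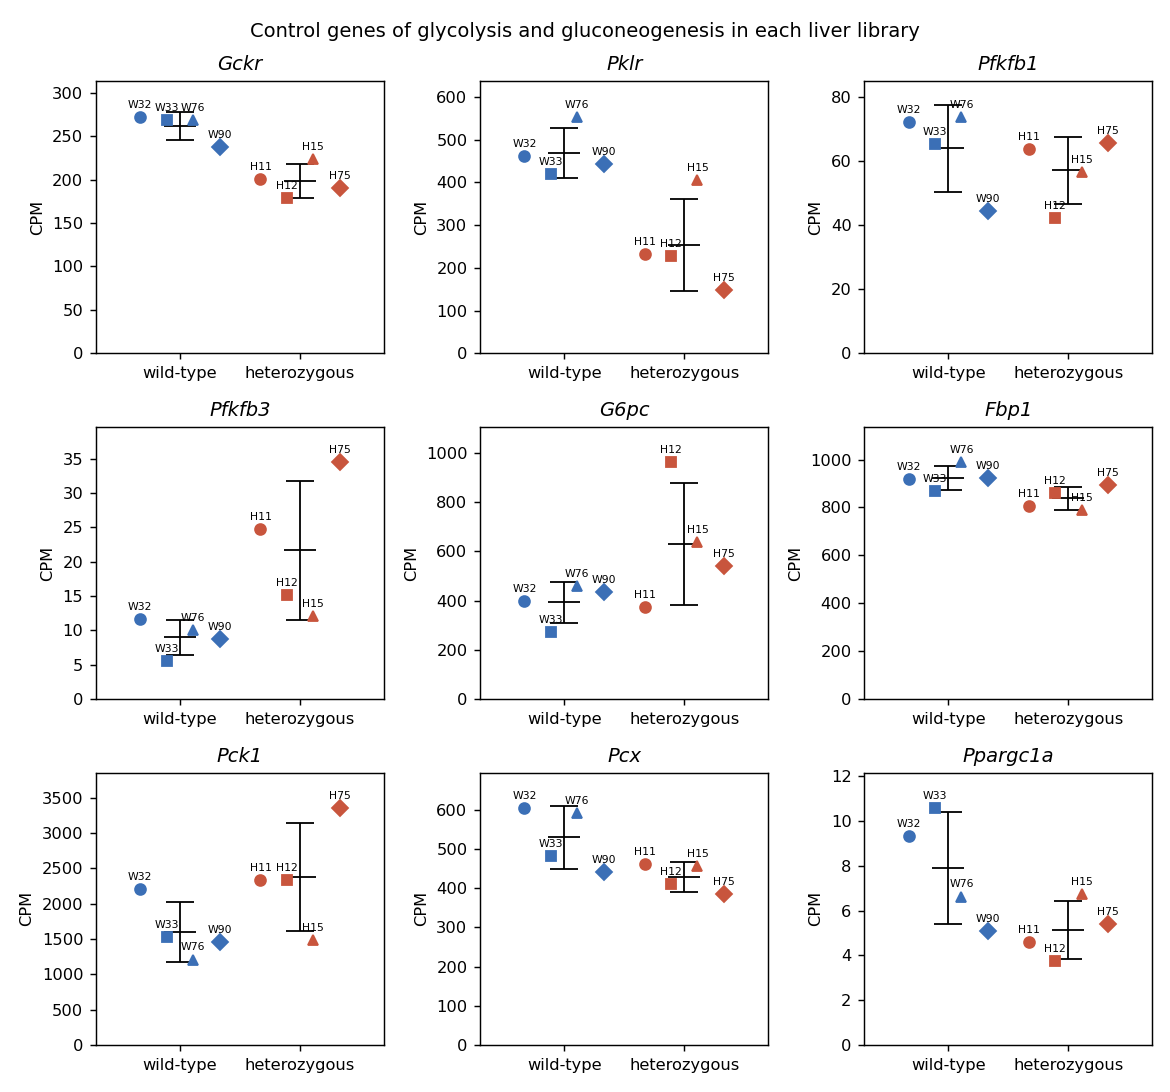
Expression of the 9 genes in CPM (linear axes from 0), 1 labelled point per liver library, with the mean and SD of each group of 4 as bars. The heterozygous points lie wholly below the wild-type points for Gckr and Pklr and wholly above them for Pfkfb3, and H15 is the heterozygous point nearest to wild type in these 3 panels.

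The levels of the 9 genes ranged from the abundant Fbp1 and Pck1 down to Ppargc1a. Per kilobase of gene length, Fbp1 was at 625 ± 33.7 and Pck1 at 601 ± 161 CPM in wild-type livers (SD, n = 4 each), and the gap between them was smaller than the SD of Pck1. Pklr (168 ± 21.1), G6pc (163 ± 34.3), Pcx (128 ± 19.3) and Gckr (115 ± 7.20) followed, and each of these neighbours differed by less than the sum of their SDs. Pfkfb1 was at 34.1 ± 7.18, Pfkfb3 at 4.37 ± 1.25 and Ppargc1a at 1.22 ± 0.388 CPM per kilobase, each separated from the gene before it by more than that sum. In heterozygous livers the order of the means began with Pck1 (894 ± 286), Fbp1 (566 ± 32.2) and G6pc (261 ± 103). Pcx (103 ± 9.15), Pklr (90.8 ± 38.8) and Gckr (87.3 ± 8.41) then lay within the SD of Pklr, so Pklr was the fifth, having been the third in wild type. The last 3 places were unchanged, with Pfkfb1 at 30.5 ± 5.66, Pfkfb3 at 10.5 ± 4.92 and Ppargc1a at 0.793 ± 0.198 CPM per kilobase. The deposited gene length is 1 value per gene, so a level per kilobase depends on which transcripts were counted.

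**Figure D2:**
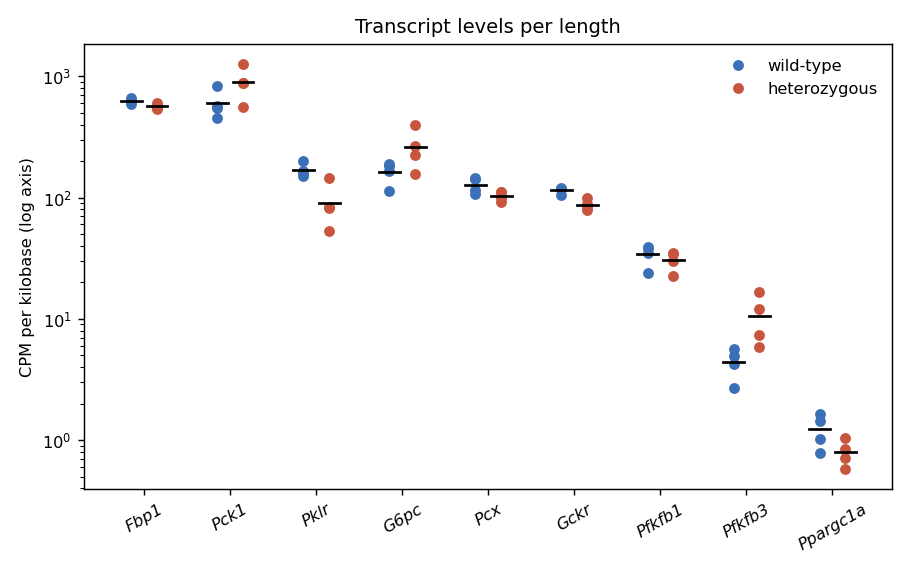
CPM per kilobase of gene length on a log axis for the 9 genes, ordered by the wild-type mean, with 1 point per library and a line at the mean of each group of 4. Pck1 and Fbp1 lie at the top and Ppargc1a at about 1 CPM per kilobase, and Pklr falls among Pcx and Gckr in the heterozygous group.

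At the entry of glucose, the regulator Gckr was lower in every heterozygous library. Gckr was at 273 (W32), 268 (W33), 268 (W76) and 237 CPM (W90) in wild-type livers and at 200.4 (H11), 179 (H12), 224 (H15) and 190.2 CPM (H75) in heterozygous livers. The groups did not overlap, and the closest libraries were W90 and H15. Group means were 262 ± 16.4 and 198 ± 19.1 CPM (SD, n = 4 each), and the heterozygous one was 75.8% of the wild-type one. This was a log2 fold change of -0.40 (SE 0.096, edgeR adjusted p = 0.353). A two-sided exact permutation of the libraries over 70 assignments, on log2 CPM, gave p = 0.0286, the smallest it can give. Without H15 the log2 fold change was -0.46 (edgeR adjusted p = 0.0457), and DESeq2 on all libraries gave an adjusted p of 0.0203. Over 21 alternatives the adjusted p of Gckr ran from 3.68e-04 to 0.679. The spread of Gckr within a group was small, with a coefficient of variation of 6.25% in wild-type and 9.64% in heterozygous livers.

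At the end of glycolysis, Pklr was lower in every heterozygous library. Wild-type libraries had 461 (W32), 420 (W33), 554 (W76) and 443 CPM (W90), and heterozygous libraries had 231 (H11), 227 (H12), 405 (H15) and 149 CPM (H75). The groups did not overlap, H15 lay close below W33, and H75 was the lowest. Pklr had a heterozygous mean at 53.9% of wild type, a log2 fold change of -0.89 (SE 0.26, edgeR adjusted p = 0.386). The exact two-sided permutation p was 0.0286, again the smallest possible. Without H15 the log2 fold change was -1.21 (SE 0.17, edgeR adjusted p = 0.0132), and over 21 alternatives the adjusted p ran from 1.39e-09 to 0.771 and the log2 fold change from -1.23 to -0.71.

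Exons of Pklr overlap exons of Hcn3, an ion channel gene on the other strand, over 711 of their 3236 bases, and no source used here tells whether reads were counted by strand. Hcn3 was at 41.9 to 46.6 CPM in wild-type livers and at 14.6 (H11), 14.3 (H12), 45.5 (H15) and 9.81 CPM (H75) in heterozygous livers. Its level was at most 11.2% of that of Pklr in any library. Within the overlap, reads of the pair cannot be told apart without strand. Of the estimated counts of Pklr, 0% were whole numbers, against 100% for Gckr, Pck1 and Fbp1. The share was 25% for G6pc and Pcx, which have no annotated exon of another gene over their exons. How reads were split between genes was not tested.

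At the phosphofructokinase step, the bifunctional enzyme genes Pfkfb1 and Pfkfb3 differed from each other. Pfkfb3, the inducible family member with high kinase activity, was higher in every heterozygous library. It was at 11.6 (W32), 5.57 (W33), 10.1 (W76) and 8.70 CPM (W90) in wild-type livers and at 24.8 (H11), 15.2 (H12), 12.1 (H15) and 34.5 CPM (H75) in heterozygous livers. The groups did not overlap, with H15 just above W32. Its counts were 156 to 689 in a library. Pfkfb3 had a log2 fold change of 1.26 (SE 0.33, edgeR adjusted p = 0.355), 2.40-fold higher, with an exact two-sided permutation p of 0.0286. In the authors' deposited table Pfkfb3 is the 1 gene of the 9 marked as significant, with a log2 fold change of 1.27 and an adjusted p of 0.0149. That mark is borne by 74 genes in all. Gckr and Pklr have adjusted p-values of 0.0194 and 0.0396 in the authors' deposited table without that mark. Their linear folds there are 0.759 and 0.540, beside 2.41 for Pfkfb3. Without H15 the log2 fold change of Pfkfb3 was 1.46 (edgeR adjusted p = 0.0428, limma-voom 0.066), and without H75 it was 0.95 (edgeR adjusted p = 0.661). Over 21 alternatives its adjusted p ran from 4.60e-05 to 0.677.

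Pfkfb3 is also expressed by leukocytes and endothelial cells, and markers of these cells are therefore given beside it. The summed level of 5 neutrophil markers was 0.908 to 2.28 CPM in wild-type livers and 3.86 (H11), 6.82 (H12), 1.32 (H15) and 5.95 CPM (H75) in heterozygous livers. Of its 3 tested markers, 2 were higher at an unadjusted p under 0.05. The defining marker Ly6g was at 0 in every library but H15, where it was at 0.085 CPM. Markers of sinusoidal endothelium summed to 97.2 to 134 CPM in wild-type and 112 to 168 CPM in heterozygous livers, with 1 of 5 higher at an unadjusted p under 0.05. Kupffer cell markers summed to 55.9 to 129.7 and 55.7 to 127.6 CPM, with 0 of 6 past that level. The part of these cells in the Pfkfb3 difference was not tested.

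Pfkfb1, the liver and muscle family member, ranged from 44.5 to 73.8 CPM in wild-type and from 42.3 to 65.6 CPM in heterozygous livers, so the groups overlapped. Its log2 fold change was -0.16 (SE 0.18, edgeR adjusted p = 0.806). W90 and H12 were the lowest libraries of their groups. Exons of Pfkfb1 overlap exons of Apex2 on the other strand over 3.06% of their bases. Within a library the Pfkfb1 to Pfkfb3 count ratio was 6.20 (W32), 11.7 (W33), 7.31 (W76) and 5.12 (W90) in wild-type livers and 2.57 (H11), 2.79 (H12), 4.66 (H15) and 1.903 (H75) in heterozygous livers. Each heterozygous ratio was below each wild-type ratio, and the mean difference was 2.56-fold (log2 means 2.85 ± 0.51 and 1.497 ± 0.54, SD, n = 4 each). Pfkfb1 remained the more abundant transcript of the pair in all 8 libraries, also per kilobase.

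The enzymes opposed at this step had small differences. Fbp1 was at 867 to 988 CPM in wild-type and 789 to 892 CPM in heterozygous livers, with 3 heterozygous libraries below all wild-type ones and H75 inside their range. Its log2 fold change was -0.14 (SE 0.09, edgeR adjusted p = 0.660). Pfkl, the liver phosphofructokinase, was at 31.9 to 39.1 and 33.8 to 39.8 CPM, with a log2 fold change of 0.0044 (SE 0.093) that turned negative with library totals alone (-0.077) and upper quartile scaling (-0.0098). The log2 ratio of Pfkl to Fbp1 counts was -4.70 ± 0.18 in wild-type and -4.55 ± 0.18 in heterozygous livers (SD, n = 4 each), a difference smaller than the SDs.

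At the last step of gluconeogenesis, G6pc had a higher mean in heterozygous livers, with H12 far above the rest. It was at 400.1 (W32), 274 (W33), 459 (W76) and 437 CPM (W90) in wild-type livers and at 374 (H11), 962 (H12), 640.3 (H15) and 539.6 CPM (H75) in heterozygous livers. H12, H15 and H75 lay above all wild-type libraries and H11 lay inside their range. G6pc had a log2 fold change of 0.68 (SE 0.27, edgeR adjusted p = 0.484), with an exact two-sided permutation p of 0.114. Without H15 it was 0.67 (edgeR adjusted p = 0.303), and without H12 it was 0.40 (edgeR adjusted p = 0.904). For G6pc, H15 was not the heterozygous library nearest to wild type.

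Pck1 also had a higher mean in heterozygous livers, with H75 above the rest. It was at 2209.9 (W32), 1526 (W33), 1208 (W76) and 1456 CPM (W90) in wild-type livers and at 2334 (H11), 2339 (H12), 1489 (H15) and 3350.1 CPM (H75) in heterozygous livers. H11, H12 and H75 lay above W32, the highest wild-type library, and H15 lay among the other wild-type libraries. Pck1 had a log2 fold change of 0.57 (SE 0.25, edgeR adjusted p = 0.523), with an exact two-sided permutation p of 0.0857. Without H15 it was 0.74 (edgeR adjusted p = 0.128, DESeq2 adjusted p = 0.0108), and without H75 it was 0.36. Without H15, DESeq2 called 3.03% of the 25346 genes with a p-value. H75 had the highest Pck1 and Pfkfb3 and the lowest Pklr of all 8 libraries, whereas H12 had the highest G6pc. These libraries also stood apart in some markers of other liver cells. The 5 stellate cell markers summed to 83.1 to 100.2 CPM in wild-type livers and to 127 (H11), 70.8 (H12), 107 (H15) and 40.7 CPM (H75) in heterozygous livers, with 0 of 5 at an unadjusted p under 0.05. The 4 cholangiocyte markers summed to 9.83 to 15.999 CPM in wild-type livers and to 11.2 (H11), 49.2 (H12), 17.7 (H15) and 21.7 CPM (H75), with 1 of 4 higher at that level. Most of the sum in H12 and H75 was Sox9, at 44.8 and 20.2 CPM, against 7.90 to 9.57 CPM in wild-type livers. In H12, Krt19, Krt7 and Epcam lay inside the wild-type range. In H75, Epcam lay inside it, and Krt19 (0.450 CPM) and Krt7 (0.100 CPM) lay below all wild-type libraries. In H15, Krt19 (3.10 CPM), Krt7 (1.91 CPM) and Epcam (4.42 CPM) lay above all wild-type libraries, and Sox9 (8.24 CPM) lay inside their range. In H11, Krt19, Epcam and Sox9 lay inside that range, and Krt7 (0.442 CPM) lay just below it. The part of stellate cells and cholangiocytes in the values of the 9 genes was not tested.

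Pcx, which feeds pyruvate into gluconeogenesis and into the citrate cycle, did not share the direction of Pck1 and G6pc. It was at 604 (W32), 482 (W33), 591 (W76) and 442 CPM (W90) in wild-type livers and at 463 (H11), 411 (H12), 458 (H15) and 384 CPM (H75) in heterozygous livers. H12 and H75 lay below all wild-type libraries and the other heterozygous libraries lay between W90 and W33. For Pcx the log2 fold change was -0.31 (SE 0.12, edgeR adjusted p = 0.495), and without H15 it was -0.34 (edgeR adjusted p = 0.269). The exact two-sided permutation p was 0.0857.

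Ppargc1a, the coactivator known to induce Pck1 and G6pc, had a lower mean in heterozygous livers. It was at 9.33 (W32), 10.6 (W33), 6.63 (W76) and 5.07 CPM (W90) in wild-type livers and at 4.62 (H11), 3.74 (H12), 6.75 (H15) and 5.40 CPM (H75) in heterozygous livers. Its counts were 97 to 296 in a library. H11 and H12 lay below all wild-type libraries, whereas H15 and H75 lay inside their range. For Ppargc1a the log2 fold change was -0.63 (SE 0.26, edgeR adjusted p = 0.495), with an exact two-sided permutation p of 0.143. Without H15 it was -0.79 (edgeR adjusted p = 0.185). H12, the library with the highest G6pc, had the lowest Ppargc1a.

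**Figure D3:**
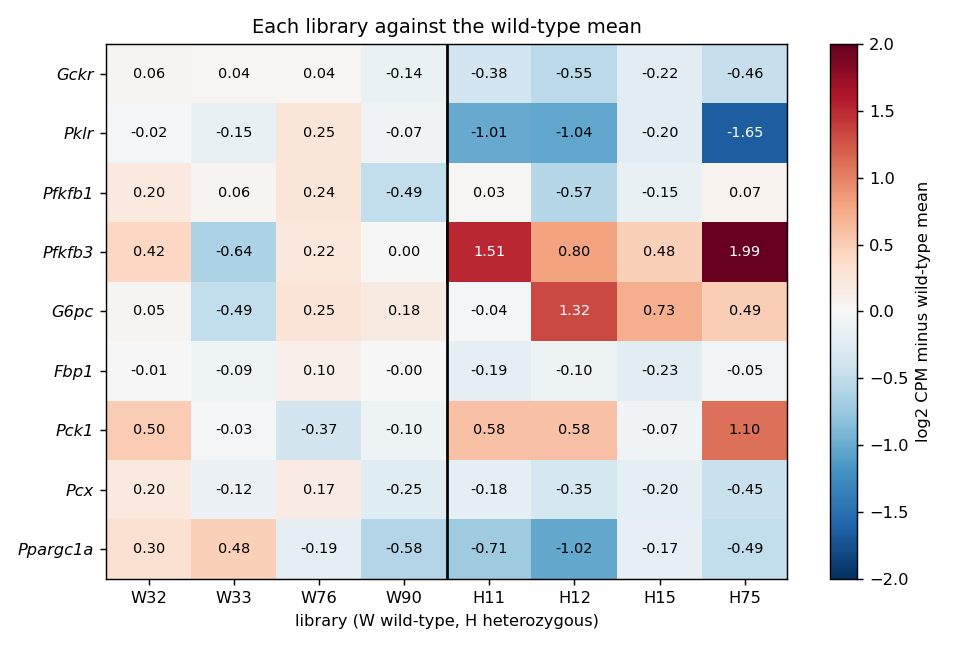
Log2 CPM of the 9 genes in each library minus the wild-type mean of that gene, with libraries in columns (4 wild-type left of the line, 4 heterozygous right) and red above and blue below that mean. H15 has small values for Gckr, Pklr and Pck1 but 0.73 for G6pc, while H75 has -1.65 for Pklr and 1.10 for Pck1.

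**Figure D4:**
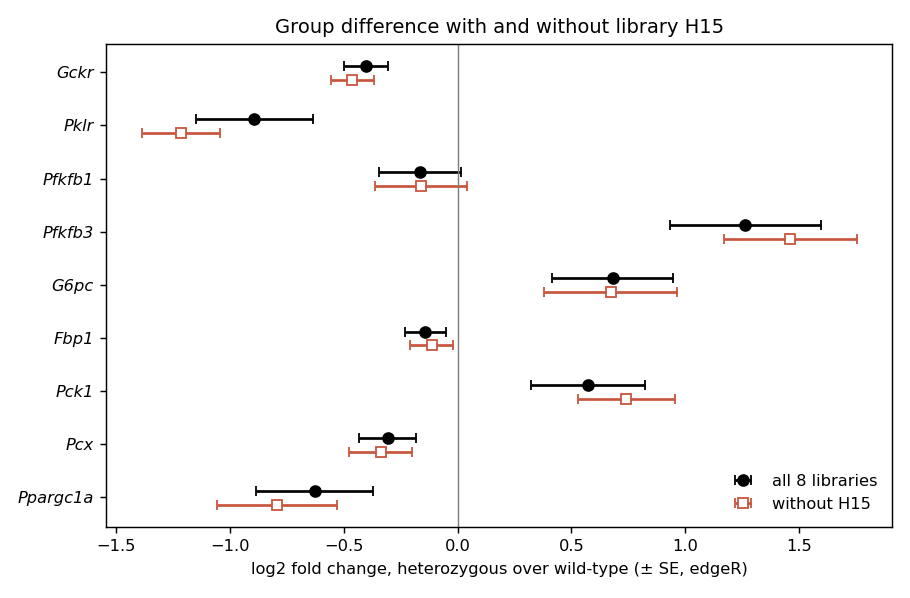
Log2 fold change of heterozygous over wild-type livers with its standard error (edgeR), for all 8 libraries (filled circles) and without H15 (open squares). Gckr, Pklr, Pfkfb3, Pck1 and Ppargc1a lie farther from 0 without H15, and G6pc (0.67 against 0.68) and Pfkfb1 (-0.16 in both) hardly differ.

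Ratios of 2 genes within a library do not depend on how libraries are scaled. The Pklr to Pck1 count ratio was 0.208 (W32), 0.275 (W33), 0.458 (W76) and 0.304 (W90) in wild-type livers and 0.0991 (H11), 0.0969 (H12), 0.272 (H15) and 0.0445 (H75) in heterozygous livers. H11, H12 and H75 lay below all wild-type libraries and H15 inside their range. The mean log2 ratio was -1.74 ± 0.47 in wild-type and -3.27 ± 1.07 in heterozygous livers (SD, n = 4 each), a 2.88-fold difference that was 3.97-fold without H15. For Pklr over Pcx the mean log2 ratios were -0.17 ± 0.17 and -0.85 ± 0.50, and H15 lay inside the wild-type range. These ratios were not tested, since the pairs were chosen with results of these data known.

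**Figure D5:**
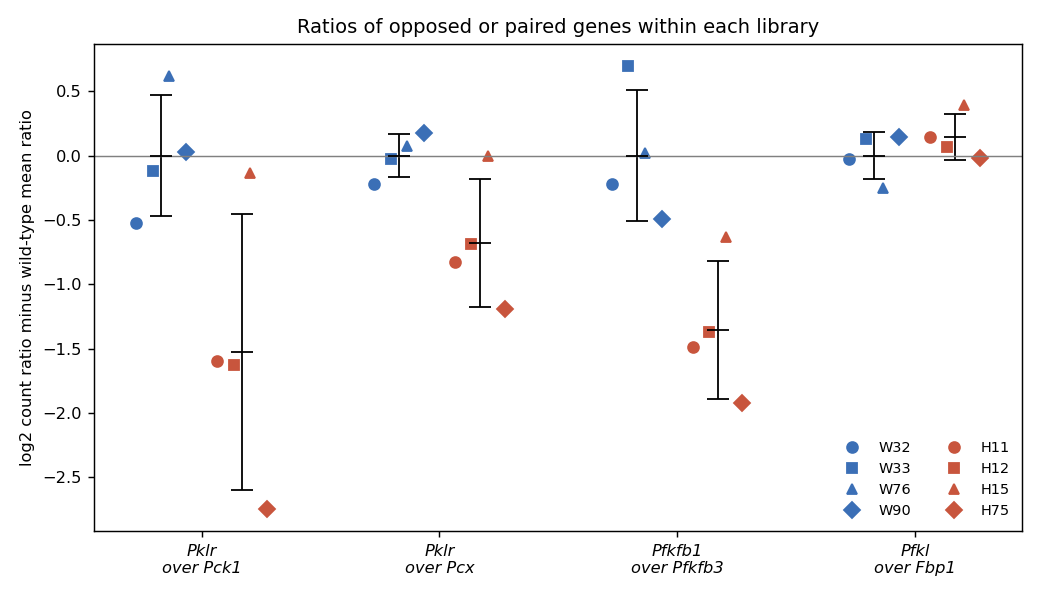
Log2 ratio of the counts of 2 genes within each library, minus the wild-type mean ratio of the pair, with 1 symbol per library and the mean and SD of each group of 4 as bars. All 4 heterozygous libraries lie below the wild-type libraries for Pfkfb1 over Pfkfb3, and H15 lies among the wild-type libraries for Pklr over Pck1 and Pklr over Pcx.

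Among 97 other tested genes of the pathway and its control, in 6 lists set by role, 0 passed edgeR's test over all genes. At an unadjusted p under 0.05, 9 were higher and 14 lower, 23.7% of them beside 9.34% of all genes. The lists, too, were chosen with earlier results of these data known, so the shares are a description and no test. DESeq2 called 4 (0.587% of the 25709 genes with a p-value), limma-voom called 0 (0.0%), and edgeR without H15 called 14 (1.74%). In each direction the share of all genes at an unadjusted p under 0.05 was 4.9% higher and 4.44% lower, beside which the counts of each list stand. Of 20 glycolysis enzymes, 3 were lower and 0 higher at that level, with a median log2 fold change of -0.10 against 0.0051 over all genes. Eno1, an enolase, was 1 of them, with means of 566 ± 31.0 and 475 ± 44.5 CPM (SD, n = 4 each, edgeR adjusted p = 0.479).

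Of 19 tested genes of gluconeogenesis and pyruvate entry, 2 were lower and 1 was higher at that level, the latter near the share over all genes (median log2 fold change -0.068). Pdk1, a kinase that inactivates pyruvate dehydrogenase, was at 124 to 137 CPM in wild-type livers and 86.2 (H11), 79.0 (H12), 134 (H15) and 73.3 CPM (H75) in heterozygous livers. Pdha1, a subunit of pyruvate dehydrogenase, was at 126 to 143 and 113 to 125 CPM and the groups did not overlap. Got1, the cytosolic aspartate aminotransferase, had means of 131 ± 26.1 and 187 ± 37.7 CPM (SD, n = 4 each). Exons of Pdha1 overlap exons of Map3k15 on the other strand.

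Of 12 genes of fructose and glucose entry and the pentose shunt, 0 were higher and 4 lower at that level (median log2 fold change -0.28). They were Pgd and Tkt of the pentose shunt, the fructose pathway kinase Tkfc and the glucose transporter Slc2a2, the last named after its values were seen. Tkt was at 158 to 177 CPM in wild-type and 117 to 157 CPM in heterozygous livers, and Tkfc at 362 to 486 and 284 to 361.5 CPM. For both, the groups did not overlap, by a narrow gap. Without H15 edgeR called Pgd (log2 fold change -0.83, adjusted p = 0.0114). Exons of Tkfc overlap other-strand exons of Cyb561a3 and Ddb1.

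Of 27 transcription regulators, 6 were higher at that level and 0 were lower, with a median log2 fold change of -0.02. Sik1, a kinase induced by cAMP that restrains gluconeogenic transcription, was at 8.32 to 11.04 CPM in wild-type livers and 11.7 (H11), 37.6 (H12), 16.6 (H15) and 18.2 CPM (H75) in heterozygous livers (edgeR adjusted p = 0.355, DESeq2 adjusted p = 0.0173). Cebpb, which activates Pck1, was at 17.7 to 23.5 CPM in wild-type livers and 35.3, 78.2, 17.1 and 49.8 CPM in H11, H12, H15 and H75 (edgeR adjusted p = 0.402, DESeq2 adjusted p = 0.0456). Hnf4a, the hepatocyte nuclear receptor through which PGC-1α acts on these genes, was at 495 to 537 CPM in wild-type livers and 538 to 715 CPM in heterozygous livers. H12, the library with the highest G6pc, was also the highest for Sik1 and Cebpb. Exons of Cebpb overlap other-strand exons of Tmem189.

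Of 9 genes known to respond to glucose through carbohydrate response elements, 7 had a lower mean in heterozygous livers (median log2 fold change -0.91), and 3 were lower and 0 higher at an unadjusted p under 0.05. These 3, Acaca, Acly and Fasn, are enzymes of fatty acid synthesis that insulin also induces. The 2 genes with a higher mean, named after their values were seen, were Txnip and Arrdc4. Their log2 fold changes were 0.54 (edgeR adjusted p = 0.566) and 0.079 (edgeR adjusted p = 0.880). Fasn was at 1043 to 1542 CPM in wild-type livers and at 351 (H11), 289 (H12), 1375 (H15) and 221 CPM (H75) in heterozygous livers. As for Pck1, H15 lay inside the wild-type range. Without H15 edgeR called 5 of the 9 as lower, beside 1.74% of all genes in either direction, and 0 with it. Of 11 insulin and glucagon signalling genes, 2 were lower at that level and 2 were higher (median 0.0084). The higher ones were Irs2, an insulin receptor substrate, and Igfbp1, a secreted binding protein, both of which insulin represses in liver. Irs2 was at 23.3 to 33.8 CPM in wild-type and 52.7 to 83.7 CPM in heterozygous livers (edgeR adjusted p = 0.136, DESeq2 adjusted p = 5.34e-07). Igfbp1 was at 42.4 to 106 CPM in wild-type livers and at 312 (H11), 1172 (H12), 226 (H15) and 598 CPM (H75) in heterozygous livers (edgeR adjusted p = 0.196, DESeq2 adjusted p = 4.33e-04). Neither gene overlapped between the groups, H15 included, and both were highest in H12, as was G6pc. Exons of Irs2 overlap those of 9530052E02Rik on the other strand. Pde3b, a phosphodiesterase that insulin activates to lower cAMP, was at 66.0 to 79.3 CPM in wild-type and 57.0 to 63.4 CPM in heterozygous livers (log2 fold change -0.27, edgeR adjusted p = 0.414).

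For each of the 9 genes the 2 genes with the most similar pattern over the 8 libraries were sought among 8730 genes by Pearson's r of log2 CPM. This is a description over libraries that share scaling and the group difference, and with so many genes searched a high r is usual. For Pklr they were Vac14 (r = 0.99) and Hcn3 (0.98), the latter being the gene whose exons overlap those of Pklr. For Gckr they were Osbpl3 (0.97) and Rassf6 (0.97), for Pfkfb3 Cyp2d26 (0.95) and Crp (0.91), and for Pfkfb1 Fam214a (0.96) and Ncapd3 (0.96). For G6pc they were Rab4b and Golph3 (0.96 each), for Pck1 Cwc22 (0.98) and Slc25a47 (0.95), and for Fbp1 Fam199x (0.96) and Rnf181 (0.95). For Pcx they were Acss3 and Dtx3l (0.98 each), and for Ppargc1a Mindy2 (0.95) and C2cd2 (0.91). None of the 9 genes was among the closest to another of them.

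On GRCm38 (GENCODE mouse release 21) the 9 protein-coding genes lie on 7 chromosomes. Gckr spans chromosome 5 from 31297443 to 31327314, Pklr chromosome 3 from 89136142 to 89146784 and Pfkfb3 chromosome 2 from 11471433 to 11554077. Pck1 spans chromosome 2 from 173153048 to 173159273 and G6pc chromosome 11 from 101367561 to 101377903. Fbp1 spans chromosome 13 from 62864753 to 62888282, Pcx chromosome 19 from 4510472 to 4621752, Pfkfb1 chromosome X from 150588229 to 150643878 and Ppargc1a chromosome 5 from 51454250 to 51567726. Gckr, Pfkfb3, G6pc, Pck1, Fbp1, Pcx and Ppargc1a have no annotated exon of another gene over their exons.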

How the data were processed

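Snap-frozen livers gave RNA by Trizol with DNaseI treatment and removal of ribosomal RNA, per the labels' protocols. The submitters' processing notes name mm10, fastp 0.19.5, Bowtie2 2.2.9, GATK 3.8 and SAMtools 1.9 without roles. The sources used here do not name the counting program, annotation or strand setting. The deposited table holds estimated counts per gene, not normalized, 90.0% of them whole. The authors' deposited comparison table holds, per the file headers, gene length, p-values, a log2 value and the linear fold, which is a ratio. Its direction was taken as heterozygous over wild-type, the sign found in 99.5% of 13972 shared genes.

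Columns were assigned to groups by their first letter and carry no replicate number. Estimated counts were rounded, filtered with filterByExpr, scaled by TMM (factors 0.900 to 1.06) and compared in R 4.3.3 by the edgeR 4.0.16 quasi-likelihood test on group alone, with Benjamini-Hochberg adjustment over 14261 genes. An SE is the absolute log2 fold change over the square root of F. DESeq2 1.42.0 and limma-voom (limma 3.58.1) were alternatives. CPM uses TMM-scaled library sizes, and 0.5 was added to counts for log2 CPM in exact permutation tests. The fits were also run on simulated data. The check there required only that edgeR recover changes larger than those of the 9 genes and make few false calls. It set no requirement for changes as small as those described here. Named genes are the 9 genes, Pfkl, Eif2s1, the 3 of lowest p in each list, and the 2 closest in pattern to each of the 9. Some results under this rule are not reported here. The genes and lists were chosen with earlier results of these data known. Loci without annotation, 541 in all and 0.431 to 0.977% of counts, were kept.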

Additional observations from a re-analysis of the deposited data

Results flagged for a closer look

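In 28 groups of 4 libraries (the 9 genes, Pfkl and the 4 ratios), 2 held a library far from the others of its group, and chance gives about 1 in 20. Gckr in W90 was at 237 CPM, below the 268 to 273 CPM of the other wild-type libraries and above all heterozygous ones. Pfkl in H15 was at 39.8 CPM, above the 33.8 to 34.7 CPM of the other heterozygous libraries.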

How the results depend on the processing

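Over 21 alternatives for each of the 9 genes, the sign of the log2 fold change was the same in all. Among the 9, edgeR called 0, DESeq2 called 3, and leaving out 1 library gave 0 to 3 calls, 3 without H15 and 0 without any other. Without H15, DESeq2 called 4 and limma-voom 2, both chosen after seeing the data. At an unadjusted p under 0.05 the count of 7 ran from 3 (without H12) to 7 with 1 library left out, and was 4 without W32, W33 or H75. The share of all genes at that level is given only for all 8 libraries (9.34%). The counts with a library left out therefore have no share beside them and are a description only. Genes called over the whole table, 0 with edgeR, were 18 with no filter, 151 with DESeq2, 1 with the newer quasi-likelihood method, 1 with a robust fit, 0 to 252 with 1 library left out (252 without H15, 2 without W32), and 769 (DESeq2) and 197 (limma-voom) without H15. The cause was not tested. Pfkl turned negative with upper quartile scaling (-0.0098), library totals alone (-0.077), without W32 (-0.0055), W76 (-0.042) or H15 (-0.053), and without H15 in DESeq2 (-0.046) and limma-voom (-0.049), and ran from -0.053 to 0.051 with 1 library left out. Over all genes the median, 0.0051, turned negative with upper quartile scaling (-0.0093), library totals alone (-0.079) and without H11 (-6.98e-05), and ran up to 0.0090 with 1 library left out. No ratio changed sign when a library was left out: Pklr over Pck1 ran from -1.99 to -1.12 and Pfkfb1 over Pfkfb3 from -1.59 to -1.12 (log2, heterozygous minus wild-type). No paired analysis was possible because the columns carry no replicate number. With 4 libraries a group, 70 assignments allow no permutation p below 0.0286.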
